A study of Mus musculus with 28 samples.

Results

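The CC chemokine genes Ccl2, Ccl3, Ccl4, Ccl5, Ccl6, Ccl7, Ccl8, Ccl9 and Ccl12 were followed in retinal microglia through an acute inflammation and its resolution. The 9 genes were taken by symbol from a table of 40021 genes, and all 9 were among the 13164 genes that passed a filter on low values and were tested. Microglia were sorted as live tdTomato-bright cells, 600 from each of 28 single retinas of male heterozygote Cx3cr1CreER:R26-tdTomato mice on a C57BL/6 background, and their mRNA was amplified and sequenced. In these mice the promoter of the fractalkine receptor gene Cx3cr1 drives a tamoxifen-dependent Cre, so that other Cx3cr1-expressing cells that persist after tamoxifen can also carry the label. All groups, naïve mice included, had received topical tamoxifen over 3 days from 4 to 5 weeks of age. Endotoxin-induced uveitis (EIU) was induced 4 weeks later with 10 ng LPS (lipopolysaccharide), which Gram-negative bacteria carry on their surface, in 2 µL injected into the vitreous. Groups were 10 retinas from naïve eyes and 6, 5 and 7 from eyes taken 4 h, 18 h and 2 weeks after the injection. Naïve eyes were not injected, so that the injection and LPS cannot be told apart. In the same order of groups, experiment 1 supplied 6, 3, 4 and 4 retinas and experiment 2 supplied 4, 3, 1 and 3. The labels give the eye side, with 5 left and 5 right among the naïve retinas, but do not say which retinas came from 1 mouse. Both eyes of a mouse may have entered a group as separate retinas. The p-values then measure the spread between these retinas, not between mice, and could be too small.

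CC chemokines are small secreted proteins that attract leukocytes through receptors coupled to G proteins, and they are named for a pair of adjacent cysteines near the start of the mature protein. Ccl2, Ccl7 and Ccl12 are ligands of CCR2 and draw monocytes. Ccl3, Ccl4 and Ccl5 draw monocytes and T cells, while Ccl6 and Ccl9 belong to a rodent group that signals through CCR1. Microglia are the resident macrophages of the retina and a source of such chemokines when they sense bacterial products.

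The 9 genes lay on mouse chromosome 11 (GRCm38, GENCODE M21) in 2 blocks. Ccl2, Ccl7, Ccl12 and Ccl8 lay within 81.2 kb at chr11:82035571-82116799, and Ccl5, Ccl9, Ccl6, Ccl3 and Ccl4 lay within 138.9 kb at chr11:83525778-83664683, with 1409.0 kb between the blocks. No exon of a member overlapped an exon of another gene. Because related genes can compete for reads, the part of each coding sequence around the cysteine pair is shown for 8 of the genes, from the GENCODE M21 transcripts, with both cysteine codons in capitals.
Ccl2: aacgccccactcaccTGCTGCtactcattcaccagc
Ccl7: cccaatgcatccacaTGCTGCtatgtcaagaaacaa
Ccl12: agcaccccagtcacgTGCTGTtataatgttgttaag
Ccl8: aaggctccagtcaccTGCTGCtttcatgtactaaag
Ccl5: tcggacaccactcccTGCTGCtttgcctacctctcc
Ccl4: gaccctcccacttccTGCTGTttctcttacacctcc
Ccl6: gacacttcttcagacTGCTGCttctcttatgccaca
Ccl9: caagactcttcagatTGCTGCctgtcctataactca
Each coding sequence held 1 such pair of adjacent cysteine codons, and outside the pair the windows shown differed from each other. The closest coding sequences were those of Ccl3 and Ccl4, with 68.4% identical aligned bases. Ccl7 and Ccl8 followed with 65%, Ccl8 and Ccl12 with 64.8%, and Ccl6 and Ccl9 with 64.6%. Of all stretches of 74 bases in the transcripts of the 9 genes, 0 occurred in a transcript of another gene, so that a full-length read from one member had no exact match in another.

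Levels are given as RPKM, read numbers scaled to the length of the gene and to the size of the library, and can be compared between genes. Mean depth was 11651000 alignments a retina in the naïve group, 13950000 at 4 h, 13480000 at 18 h and 12461429 at 2 weeks. Changes are differences on the log2(RPKM + 1) scale, tested with limma in 1 fit of all 28 retinas, and a gene was called a differentially expressed gene (DEG) at a Benjamini-Hochberg adjusted p of at most 0.05 and a change of at least 2-fold on that scale. All 10 microglial markers checked were detected in every group, with a summed level between 2154 and 13381 RPKM. Of these markers 5 were called lower than in naïve retinas at 4 h and 6 at 18 h. Over all genes tested, 4.39% were called lower at 4 h and 1.85% at 18 h. Rod markers were present too, at a summed 228 to 5210.3 RPKM. In bulk samples, a change in the number of cells that express a gene and a change in RNA per cell cannot be told apart. The 18 h retina of replicate 4 stood apart in several members and in lymphocyte genes, and its values are named where they bear on a result. An RPKM of 1 was reached by 6969 genes in that retina, against 9499 to 10220 in the other 4 at 18 h, and by 6644 genes in replicate 1 at 2 weeks, against 9536 to 11607 in the other 6. The naïve retinas had between 6552 and 11825 such genes.

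In naïve microglia the most abundant member was Ccl12, with a mean of 1047 ± 709 RPKM (SD, n = 10). It was above Ccl6, the next in order at 292 ± 106 RPKM, in 9 of 10 retinas. Ccl3 (169 ± 93.1 RPKM) and Ccl4 (84.3 ± 75.9 RPKM) followed, and Ccl3 exceeded Ccl4 in 7 of 10 retinas. Ccl4 and Ccl9 (56.6 ± 11.6 RPKM) were not ordered, since Ccl4 was the higher in 4 of 10 retinas. Ccl5 (23.8 ± 17.2 RPKM) and Ccl2 (20.7 ± 19.3 RPKM) overlapped as well, with Ccl5 higher in 6 of 10. Ccl7 and Ccl8 were lowest and were each listed at 0 in 3 naïve retinas. Together the 9 genes held between 0.166% and 0.945% of the summed RPKM of a naïve retina, with a median of 0.395%.

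At 4 h this share was between 15.1% and 21.9%, with a median of 17.6%. The change was carried by 3 genes, because Ccl12 (27839 ± 11970.2 RPKM), Ccl4 (27514 ± 10965 RPKM) and Ccl3 (23159 ± 10845 RPKM, n = 6 each) held the first, the second and the third place by mean among all 40021 genes. Their order was not fixed, as Ccl12 was above Ccl4 in 3 of 6 retinas and Ccl4 above Ccl3 in 4 of 6. At 18 h the share of the 9 genes was between 6.6% and 21.6%, with a median of 8.81%, and the highest value was that of replicate 4. Ccl12 was again the gene with the highest mean of the whole table (42897 ± 31221 RPKM, n = 5) and made up between 69.6% and 88.6% of the RPKM of the 9. Ccl3 and Ccl4 together supplied most of the members' RPKM in 5 of the 6 retinas at 4 h, but neither supplied more than 4.05% in any retina at 18 h. At 2 weeks the 9 genes held between 0.218% and 0.737%, within the range of the naïve retinas.

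**Figure D1:**
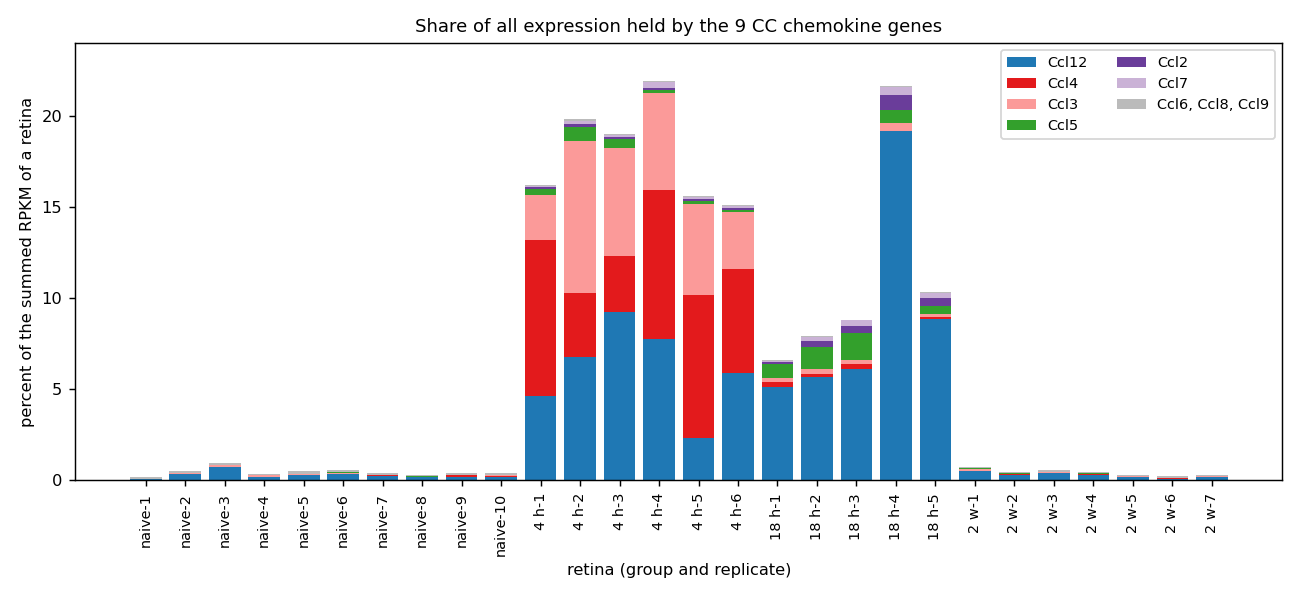
Percent of the summed RPKM of each retina (vertical axis) held by the 9 genes, 1 bar a retina, with the members stacked by colour. Naïve and 2-week bars stay under 1%, and the 6 bars at 4 h reach between 15.1% and 21.9%. At 4 h the bars are mostly Ccl12, Ccl4 and Ccl3, in amounts that differ between retinas, and at 18 h they are mostly Ccl12.

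The comparison of 4 h with naïve retinas asked which members answer first. At 4 h, 7 members rose (Ccl2, Ccl3, Ccl4, Ccl5, Ccl7, Ccl9 and Ccl12), Ccl6 fell, and Ccl8 did not pass the test. Of all genes tested, 3.68% were called higher and 4.39% lower in this comparison. The median change of the 9 members was 5.25 on the log2 scale, against -0.11 over all genes tested. For each of the 7 genes that rose, the lowest of the 6 values at 4 h exceeded the highest of the 10 naïve values.

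Ccl3 and Ccl4, chemoattractants of monocytes and T cells whose genes lie next to each other, rose most. Ccl4 was first in every setting tried, while the place of Ccl3 before Ccl7 depended on the setting. Ccl7 rose by 7.79 and Ccl3 by 7.23 with a pseudocount of 0.1, and by 7.65 and 6.96 with the replicate number as a block. In experiment 1 alone Ccl7 rose by 7.28 and Ccl3 by 6.94, and in experiment 2 alone by 5.42 and 7.65. Ccl3 was between 39.8 and 326 RPKM in naïve retinas (median 178) and at 9645, 40449, 25731, 27219.5, 21780.0 and 14130.4 RPKM in the 4 h retinas. This was a log2 change of 7.21 (standard error 0.44, adjusted p = 4.3e-13 by limma), or 148-fold. Ccl4 was between 14.8 and 228 RPKM in naïve retinas (median 52.3) and at 33776, 16822, 13241, 41525, 34135 and 25584 RPKM at 4 h. Its log2 change was 8.73 (standard error 0.71, adjusted p = 1.4e-10), or 425-fold. The lowest 4 h retina was thus far above the highest naïve retina for both genes. Their ratio varied from retina to retina: Ccl4 was 53% and Ccl3 15.1% of the members' RPKM in replicate 1 at 4 h, but 17.6% and 42.3% in replicate 2.

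Ccl12, a ligand of CCR2, was between 163 and 2758 RPKM in naïve retinas (median 811) and at 18177, 32735, 39979, 39596, 10196 and 26352 RPKM at 4 h. The log2 change of 4.89 (standard error 0.45, adjusted p = 1.8e-09) was smaller than that of 5 of the 7 genes that rose (of 4 with a pseudocount of 10, on untransformed RPKM and in experiment 2 alone), from the highest naïve mean of the 9 members. Ccl2, the main chemoattractant of monocytes, was between 0.197 and 59.2 RPKM in naïve retinas (median 18.4) and at 325, 770.2, 523, 768, 417 and 380.3 RPKM at 4 h. It rose by 5.25 on the log2 scale (standard error 0.63, adjusted p = 3.6e-07). Ccl7, which lies beside Ccl2 and also binds CCR2, was between 0 and 50.1 RPKM in naïve retinas (median 8.9) and at 219, 936, 385, 1527, 531 and 542 RPKM at 4 h. It rose by 6.62 (standard error 0.78, adjusted p = 2.3e-07). The 3 ligands of CCR2 rose between 29.6-fold and 98.2-fold, to levels that differed, with Ccl12 above Ccl2 and Ccl7 in every 4 h retina.

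Ccl5, which draws T cells and monocytes, was between 2.92 and 66.6 RPKM in naïve retinas (median 22.9). At 4 h it was at 1385, 3537 and 2078 RPKM in the retinas of experiment 1 and at 609.9, 829 and 493 RPKM in those of experiment 2. The log2 change was 5.88 (standard error 0.48, adjusted p = 1.7e-10). The 4 h retinas of the 2 experiments did not overlap, while the naïve means were 24.9 ± 22.8 RPKM (n = 6) and 22.1 ± 4.02 RPKM (n = 4). Within the experiments the change was 6.90 and 4.79. The difference between these changes was -2.11 (standard error 0.87), with an unadjusted p of 0.023 and an adjusted p of 0.87 from limma, and so it was not called. None of the 9 members was called for such a difference, where 0.0988% of all genes tested were called and 620 had an unadjusted p under 0.05, Ccl5 being the one member among them.

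The other members had smaller changes. Ccl9 was between 38.1 and 71 RPKM in naïve retinas (median 58.1) and at 111, 204, 178, 136, 179.5 and 95 RPKM at 4 h. It rose by 1.37 on the log2 scale (standard error 0.33, adjusted p = 0.006). Ccl6, its closest relative among the 9 by coding sequence, was between 168 and 482 RPKM in naïve retinas (median 254) and at 76.4, 77.3, 101, 145, 85.8 and 125 RPKM at 4 h. It fell by 1.47 (standard error 0.26, adjusted p = 2e-04), and all 6 retinas lay below all naïve ones. Neighbouring genes of related sequence thus changed in opposite directions. Ccl8, a ligand of CCR8 in the mouse, was at 5.9, 107, 7.15, 4.02, 0.507 and 1.32 RPKM at 4 h against 0 to 31 RPKM in naïve retinas, a change of 1.44 with a 95% interval from -0.21 to 3.08 (adjusted p = 0.32), so that 1 retina at 4 h stood above the rest and the other 5 lay within the naïve range.

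In experiment 1 alone 7 of the 8 calls at 4 h held and in experiment 2 alone all 8 did. The exception was Ccl9 in experiment 1 (change 1.64, adjusted p = 0.14). When untransformed RPKM were tested, Ccl2 and Ccl5 were no longer called at 4 h (adjusted p = 0.33 and 0.078).

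**Figure D2:**
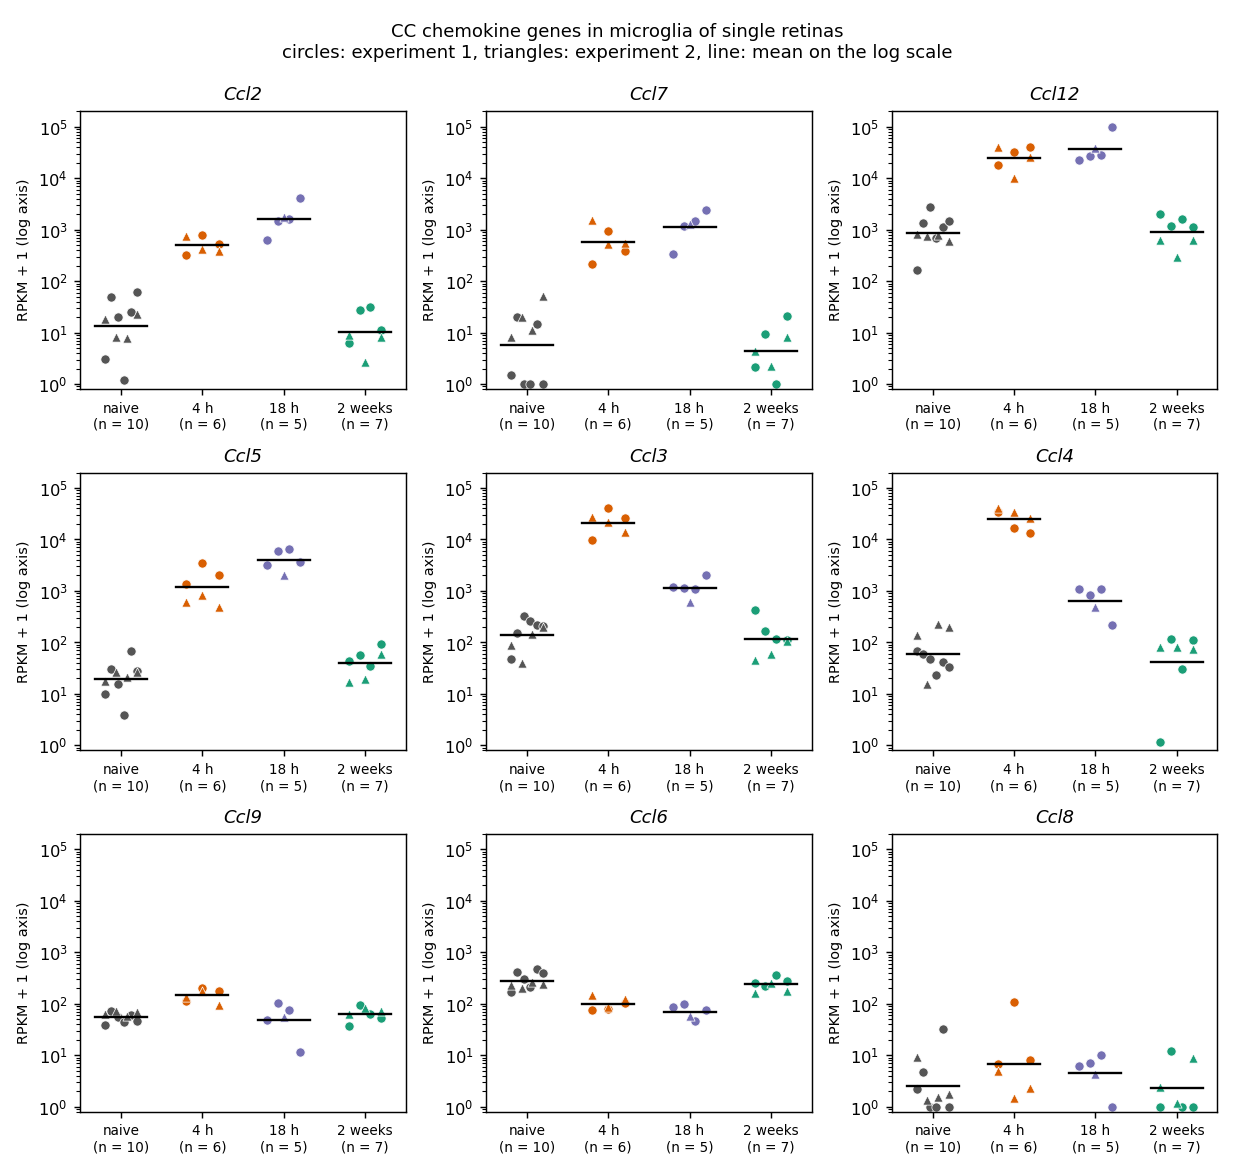
RPKM plus 1 on a log axis for each member in each retina, by group. Circles are retinas of experiment 1, triangles those of experiment 2, and lines the mean on the log scale. Ccl3 and Ccl4 peak at 4 h, Ccl2, Ccl5, Ccl7 and Ccl12 stay high from 4 h to 18 h, Ccl6 is low at both times, and most 2-week points lie within the naïve range, with Ccl4 of 1 retina at 0.153 RPKM far below it and Ccl9 on both sides of it.

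At 18 h, 6 members were higher than in naïve retinas (Ccl2, Ccl3, Ccl4, Ccl5, Ccl7 and Ccl12), Ccl6 was lower, and Ccl8 and Ccl9 did not pass the test. With array quality weights Ccl8 was called higher as well (change 1.59, adjusted p = 0.028, against 0.84 and 0.67 without weights). Of all genes tested, 2.84% were called higher and 1.85% lower. The median change of the 9 members was 3.41, against -0.08 over all genes tested. This comparison shares its naïve retinas with that at 4 h.

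The 3 ligands of CCR2 were high at 18 h. Ccl2 was at 624, 1481, 1624, 4121 and 1799 RPKM, a log2 change of 6.94 from naïve retinas (standard error 0.67, adjusted p = 1.4e-08). Ccl7 was at 330.4, 1158, 1472, 2387 and 1315 RPKM, a change of 7.59 (standard error 0.82, adjusted p = 1.7e-07). Ccl12 was at 22702, 27277, 27644, 97675 and 39186 RPKM, a change of 5.43 (standard error 0.47, adjusted p = 1.8e-09). Replicate 4 was the highest of the 5 retinas for all 3 genes, and without it their changes were 6.61, 7.32 and 5.07, all still called.

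Ccl5 was at 3189, 5986, 6646, 3692 and 2065 RPKM at 18 h. Its change of 7.64 (standard error 0.51, adjusted p = 4.1e-12) was close to that of Ccl7, and their order depended on the setting (7.73 for Ccl5 and 8.77 for Ccl7 with a pseudocount of 0.1). T and NK cells are a known source of Ccl5, and their markers were checked beside it. The summed RPKM of 11 T and NK cell markers was between 11.8 and 359 at 18 h, with replicate 4 highest, between 0.0206 and 5.33 at 4 h, at most 0.918 in naïve retinas and at most 1.76 at 2 weeks. At 18 h all 11 markers were detected in at least 1 retina, and Nkg7, a granule protein of cytotoxic lymphocytes, was at 5.77 to 86.4 RPKM. Nkg7 was listed at 0 in all naïve and 4 h retinas and did not exceed 0.907 RPKM at 2 weeks. Of the 11 markers only Nkg7 and Lck passed the filter. Nkg7 passed it through its 18 h values alone, so that its test adds nothing to these values. At 4 h, when Ccl5 was between 493 and 3537 RPKM, 7 of the 11 markers were listed at 0 in all 6 retinas (Cd3e, Cd3g, Cd8a, Nkg7, Gzma, Gzmb and Ncr1), and Cd3d, Trac and Klrb1c did not exceed 0.233 RPKM. Lck, a kinase of the T cell receptor pathway, was the exception, at 0.0206 to 5.33 RPKM at 4 h against at most 0.416 RPKM in naïve retinas (change 1.39, adjusted p = 0.0021), and at 0.0601 to 2.33 RPKM at 18 h. Replicate 4 had the highest marker sum but not the highest Ccl5, and without it the change of Ccl5 at 18 h was 7.66. Single markers differed from the sum. In replicates 1 to 5 at 18 h, Gzma was at 0, 23, 0, 238 and 54.7 RPKM and Trac at 4.07, 6.83, 11.3, 0.0942 and 0 RPKM. The highest retina was replicate 4 for Gzma, Nkg7 (86.4 RPKM) and Gzmb (6.44 RPKM), replicate 2 for Cd3d (1.42 RPKM) and replicate 3 for Trac and Ccl5. Replicate 5 was lowest for Ccl5 and Trac but had Gzmb at 4.5 RPKM, and replicate 1 was lowest for Nkg7 (5.77 RPKM). These markers thus had no common order over the 5 retinas. The share of Ccl5 at 18 h that came from T and NK cells was not tested.

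Markers of 2 other blood cell types were low but not absent. The sum of 8 neutrophil markers was at most 0.104 RPKM in naïve retinas, 0.264 at 4 h and 0.547 at 2 weeks, and at 18 h it was 1.08, 10.4, 15.8, 0 and 0.885 RPKM. At that time S100a8 reached 9.24 RPKM and S100a9 reached 5.15 RPKM, and Mpo and Ngp were listed at 0 in all 5 retinas. None of the 8 reached an RPKM of 1 in 5 retinas, so that none was tested. The sum of 7 monocyte markers was 0.139 to 29.1 RPKM in naïve retinas, 0.198 to 15.7 at 4 h, 0.0321 to 33 at 18 h and 0.775 to 28.4 at 2 weeks, so that the groups overlapped. Plac8, at up to 27.5 RPKM at 18 h (change 1.88, adjusted p = 0.12), and F13a1, at up to 28.4 RPKM in naïve retinas and 4.29 RPKM at 18 h (change -1.92, adjusted p = 0.16), were the 2 that passed the filter, and neither was called. Ly6c2 and Chil3 reached 4.68 and 1.33 RPKM at 18 h. The part of these cells in the levels of the members was not tested.

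**Figure D3:**
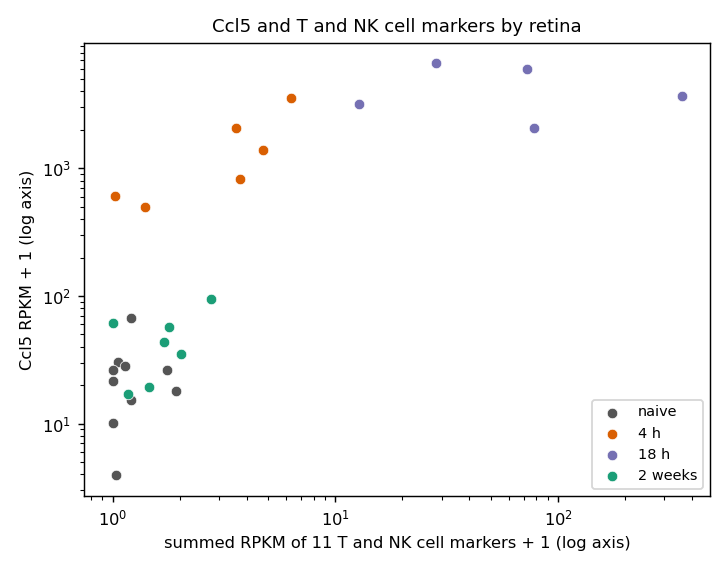
Ccl5 (vertical axis, RPKM plus 1) against the summed RPKM plus 1 of 11 T and NK cell markers (horizontal axis), both on log axes, 1 point a retina, coloured by group. The 4 h retinas have Ccl5 between 493 and 3537 RPKM at marker sums of at most 5.33, whereas the 18 h retinas have marker sums between 11.8 and 359.

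Ccl3 and Ccl4 were lower at 18 h than at 4 h but had not returned to the naïve level. Ccl3 was at 1183, 1141, 1095, 2050.3 and 613 RPKM, above every naïve retina (change 3.01, standard error 0.47, adjusted p = 9.6e-05). Ccl4 was at 1078, 834, 1098, 217 and 491 RPKM, with 4 of 5 retinas above every naïve retina and replicate 4 within the naïve range (change 3.41, standard error 0.75, adjusted p = 0.0048). Both calls were lost in experiment 2 alone, which has 1 retina at 18 h that was assumed to vary like the other groups (changes 2.60 and 2.30, adjusted p = 0.12 and 0.36), and on untransformed RPKM (adjusted p = 0.88 and 0.93). Ccl6 was at 85.5, 96.8, 44.9, 75.7 and 55.7 RPKM, all below every naïve retina (change -1.98, standard error 0.28, adjusted p = 1.7e-05). Ccl9 was at 47.8, 104, 76.2, 10.6 and 54.7 RPKM, on both sides of the naïve values, and its change of -0.23 had a 95% interval from -0.95 to 0.49 (adjusted p = 0.80). Without replicate 4, the lowest retina, the change of Ccl9 was 0.28.

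The direct comparison of 18 h with 4 h separated early members from those that lasted. In this comparison 3 members fell (Ccl3, Ccl4 and Ccl9) and 0 rose, where 2.51% of all genes tested were called lower and 2.92% higher. At an unadjusted p under 0.05 by limma there were 5 members (Ccl2, Ccl3, Ccl4, Ccl5 and Ccl9) and 2147 genes in all. Ccl3 fell by 4.21 on the log2 scale (standard error 0.52, adjusted p = 1.6e-06), or 18.5-fold. Ccl4 fell by 5.32 (standard error 0.83, adjusted p = 6e-05), or 39.9-fold. For both genes all 5 retinas at 18 h lay below all 6 at 4 h, and both calls held in each experiment alone. Ccl9 fell by 1.61 (standard error 0.39, adjusted p = 0.011), with 4 of 5 retinas below all 4 h retinas. Its call was lost in experiment 1 alone (change -1.79, adjusted p = 0.20), in experiment 2 alone (-1.26, adjusted p = 0.061) and when only the groups compared were fitted (adjusted p = 0.056), and without replicate 4 at 18 h its change was -1.09 (adjusted p = 0.042).

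No member was called late in the fit of all 28 retinas. Ccl5 came nearest, with a change of 1.76 (95% interval from 0.61 to 2.91, adjusted p = 0.065) and 3 of 5 retinas above all 4 h retinas. It was called when any 1 of 3 retinas was left out, namely naïve replicate 4 (adjusted p = 0.03), naïve replicate 5 (0.048) or replicate 2 at 4 h (change 2.08, adjusted p = 0.025). Within experiment 1 the change of Ccl5 was 1.10 (adjusted p = 0.71 by limma), and within experiment 2, with 1 retina at 18 h, it was 1.71. Both were below the change over all retinas. Experiment 1 supplied 4 of the 5 retinas at 18 h but 3 of the 6 at 4 h. At 4 h its Ccl5 was the higher, with a mean of 2334 RPKM against 644 RPKM in experiment 2. With experiment as a covariate Ccl5 was not called. Ccl2 had a change of 1.69 (95% interval from 0.18 to 3.20, adjusted p = 0.23), with 4 of 5 retinas above all 4 h retinas. Ccl7 (0.97, interval from -0.89 to 2.83), Ccl12 (0.54, interval from -0.53 to 1.61), Ccl6 (-0.51, interval from -1.13 to 0.12) and Ccl8 (-0.60, interval from -2.52 to 1.33) overlapped more. Both Ccl2 and Ccl5 were called higher at 18 h with a pseudocount of 10, with array quality weights and on untransformed RPKM, which raised the count of called members from 3 to 5. Both were also called when only the groups compared were fitted (adjusted p = 0.029 for Ccl2 and 0.049 for Ccl5), where Ccl9 was not, and quantile normalisation or a stricter filter (RPKM of 5) added Ccl5 alone (adjusted p = 0.049 in each). The contrast between the members was thus a steep fall of Ccl3 and Ccl4 beside 4 genes whose 18 h means were above their 4 h means, of which Ccl2 and Ccl5 were called in some settings and not in others. For Ccl12 the 18 h mean included replicate 4 at 97675 RPKM. Its median was 27644 RPKM at 18 h, below the 29543 RPKM at 4 h, and with 1 retina left out its change was between 0.19 and 0.71.

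**Figure D4:**
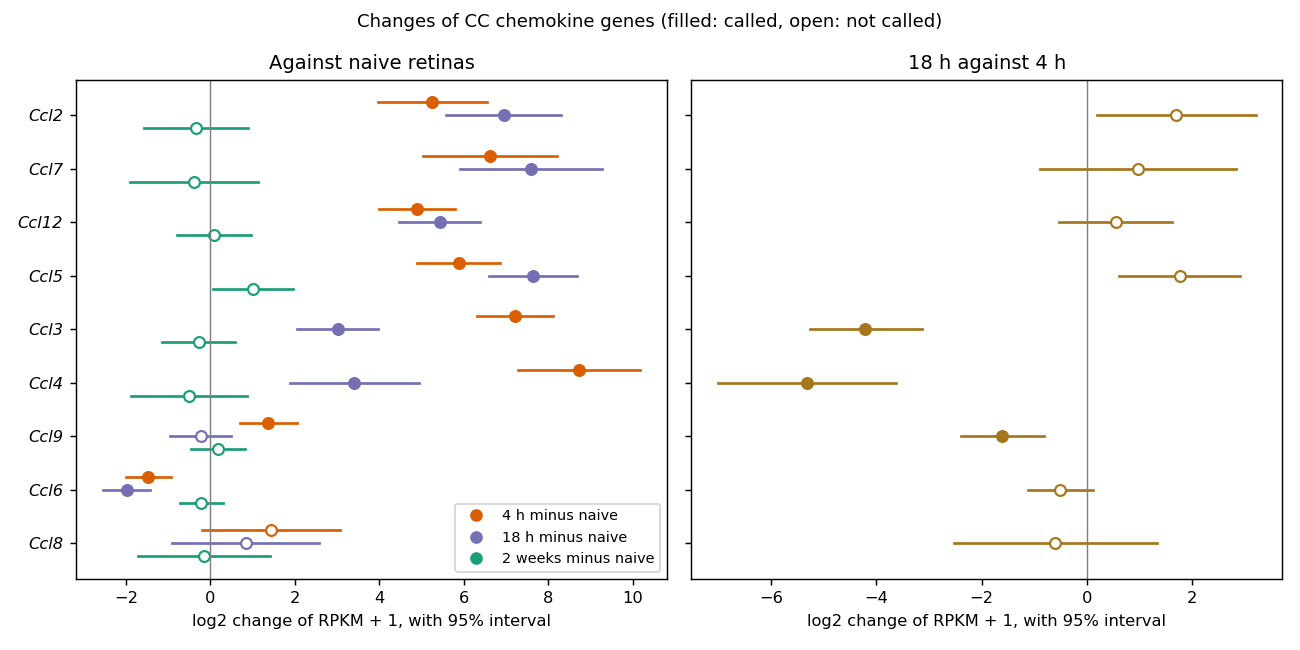
Log2 changes of RPKM plus 1 with 95% intervals for each member, against naïve retinas at 3 times (left) and at 18 h against 4 h (right). Filled points were called and open points were not. At 18 h against 4 h, Ccl3, Ccl4 and Ccl9 lie to the left of 0 and are filled, while the points of Ccl2, Ccl5, Ccl7 and Ccl12 lie to the right and are open.

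Sequence around the start sites was searched for motifs, since genes that move together can share regulatory motifs. RefSeq windows (GRCm38.p6) of 250 bases before to 50 bases after the start site were matched for 5 of 9 members, namely Ccl3, Ccl6, Ccl8, Ccl9 and Ccl12. The early member Ccl4 had no window, nor had Ccl2, Ccl5 and Ccl7, so that early members were not compared with those that lasted. Motifs searched on both strands were GGG, any 2 bases and TTTCC, a kappa B form that NF-kappa B can bind, TGANTCA, an AP-1 form, and GAAA, any 2 bases and GAAA, a form of the interferon-stimulated response element. The 120 bases before the start site are shown for the early members Ccl9 (chr11:83578637-83578756, minus strand) and Ccl3 (chr11:83649379-83649498, minus strand), with matches in capitals.
Ccl9: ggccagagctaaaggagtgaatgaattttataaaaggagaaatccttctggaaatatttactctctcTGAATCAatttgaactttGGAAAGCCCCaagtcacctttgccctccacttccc
Ccl3: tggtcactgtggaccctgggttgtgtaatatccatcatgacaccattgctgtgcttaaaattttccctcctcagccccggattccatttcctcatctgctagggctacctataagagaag
Ccl9 held an AP-1 form starting at position -53 and, 11 bases further on, a kappa B form on the opposite strand starting at -35. The windows of Ccl3, Ccl6, Ccl8 and Ccl12 held no match. Over 32851 promoters of the table, 1.63% held the kappa B form, 7.81% the AP-1 form and 3.44% the response element form. A match is a description of the letters and not of binding.

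At 2 weeks no member was called against naïve retinas by limma, where 1 of the genes tested (0.00760%) was called. At an unadjusted p under 0.05 there was 1 member, Ccl5, and 378 genes in all. Ccl5 was at 42.3, 56, 33.8, 93.7, 16, 18.2 and 59.9 RPKM, against 2.92 to 66.6 RPKM in naïve retinas, a change of 1.01 with a 95% interval from 0.07 to 1.95 (unadjusted p = 0.036, adjusted p = 1). The changes of the other members were between -0.51 for Ccl4 and 0.18 for Ccl9. The intervals leave room for differences. The widest were from -1.72 to 1.41 for Ccl8, from -1.91 to 1.12 for Ccl7 and from -1.88 to 0.87 for Ccl4. Narrower ones ran from -1.57 to 0.89 for Ccl2, from -1.15 to 0.58 for Ccl3 and from -0.78 to 0.96 for Ccl12. Ccl12 was at 2028, 1156, 1605 and 1144 RPKM in experiment 1 and at 621, 294 and 623 RPKM in experiment 2. It was higher than in the naïve retinas of the same experiment by 0.62 in experiment 1 and lower by 0.59 in experiment 2 (adjusted p = 1 and 0.83), and the difference between these was not tested. Ccl7 and Ccl2 had opposite mean changes as well, at 0.70 and 0.27 in experiment 1 and -2.04 and -1.15 in experiment 2.

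Between 18 h and 2 weeks 6 members fell (Ccl2, Ccl3, Ccl4, Ccl5, Ccl7 and Ccl12) and Ccl6 rose, where 1.55% of all genes tested were called lower and 1.10% higher. Ccl8 and Ccl9 were not called. The members' median change was -3.92, against 0.16 over all genes tested. Ccl7 fell by 7.99 on the log2 scale (standard error 0.88, adjusted p = 3.5e-07), Ccl2 by 7.28 (standard error 0.72, adjusted p = 4.6e-08) and Ccl5 by 6.63 (standard error 0.55, adjusted p = 1.3e-09). Ccl12 fell by 5.34, Ccl4 by 3.92 and Ccl3 by 3.29. For all 6 genes the 7 retinas at 2 weeks lay below the 5 at 18 h. Ccl6 rose by 1.76 (standard error 0.30, adjusted p = 0.00033), to 255, 224, 354, 277, 164, 253 and 175 RPKM. In experiment 2 alone the changes of Ccl3 and Ccl4 were not called (adjusted p = 0.07 and 0.25). Without replicate 1 at 2 weeks, at 0.153 RPKM, the change of Ccl4 was smaller, at -3.05, and was still called (adjusted p = 0.0013 by limma).

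Of 12 other CC chemokine genes, 10 were in the table and 5 passed the filter. Ccl17 and Ccl22, ligands of CCR4, rose at 4 h, Ccl22 was also higher at 18 h, and none of the 5 was called lower against naïve retinas. Ccl22 was listed at 0 in all naïve and all 2-week retinas and was at 2.8 to 18.4 RPKM at 4 h (adjusted p = 1e-06) and 1.1 to 25.7 RPKM at 18 h (adjusted p = 0.00081). Ccl17 did not exceed 0.595 RPKM in any naïve retina and was at 1.18 to 62.7 RPKM at 4 h (adjusted p = 0.00099). Ccl24, an eosinophil chemoattractant, fell from 2.05 to 59.8 RPKM at 4 h to at most 1.36 RPKM at 18 h (change -2.92, adjusted p = 0.018). None of these genes approached the level of Ccl3, Ccl4 or Ccl12.

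Of 15 genes for CC chemokine receptors and related receptors, 14 were in the table and 6 passed the filter. Ccr7, the receptor that guides cells to lymphoid tissue, and Ccrl2, an atypical receptor, rose at 4 h and fell from 4 h to 18 h, and no other receptor was called against naïve retinas. Ccr7 was listed at 0 in all 10 naïve retinas and was at 15.9 to 179.8 RPKM at 4 h (adjusted p = 2.5e-10) and at 0 to 14.7 RPKM at 18 h (adjusted p = 0.011). Ccrl2 was at 0 to 19.4 RPKM in naïve retinas, 88.9 to 409.5 RPKM at 4 h (change 5.61, adjusted p = 4.3e-08) and 4.56 to 10.7 RPKM at 18 h. Ccr1 was at 0.159 to 24.2 RPKM in naïve retinas and 0.346 to 23.6 RPKM at 4 h (change -0.56, adjusted p = 0.70). Ccr2 was at most 1.15 RPKM in any retina and failed the filter.

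**Figure D5:**
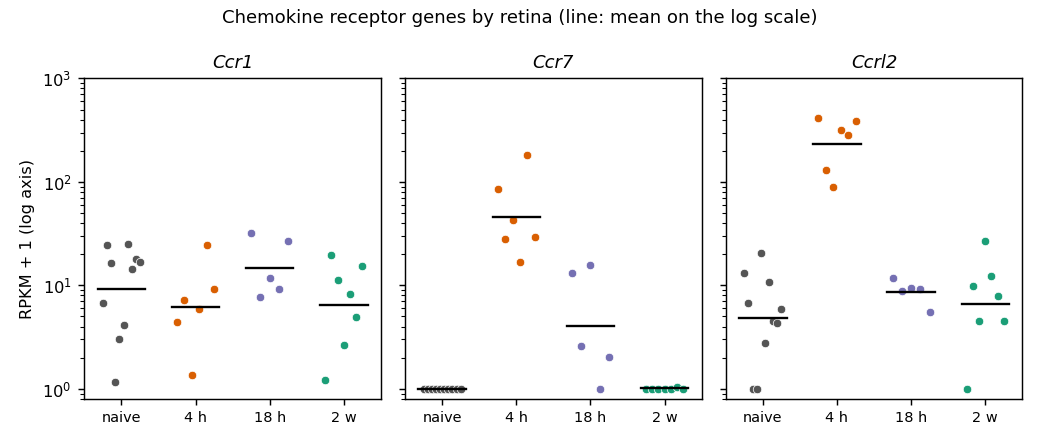
RPKM plus 1 on a log axis of 3 receptor genes in each retina, by group, with the mean on the log scale as a line. Ccr7 and Ccrl2 are high in the 6 retinas at 4 h, at 15.9 to 179.8 and 88.9 to 409.5 RPKM, while Ccr1 overlaps between all groups.

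A list of 15 genes held transcription factors that are known to act at chemokine promoters and the regulator Nfkbia. Of these 8 rose at 4 h, where 3.68% of all genes tested were called higher. From 4 h to 18 h 7 of the 15 fell, where 2.51% of all genes tested were called lower. Nfkbia, the inhibitor of NF-kappa B that is itself one of its targets, rose by 4.82 at 4 h (adjusted p = 1.3e-08) and fell by 3.58 from 4 h to 18 h (adjusted p = 8.2e-05). The AP-1 subunit Junb rose by 4.13 (adjusted p = 0.0015) and the NF-kappa B subunits Rel and Relb by 3.18 and 2.75. Irf7, a factor of the interferon response, was the one gene of the list called at 18 h against naïve retinas, at 9.94 to 42.7 RPKM against 0 to 12.1 RPKM (change 3.05, adjusted p = 0.006). At 2 weeks 0 of the 15 were called.

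Over the 28 retinas, the nearest profile to each member was sought as the smallest root mean square difference in log2 change from the naïve mean. Ccl2 and Ccl12 were nearest to each other, at 1.18. Ccl5 was nearest to Ch25h (1.27), which encodes an enzyme that makes an oxysterol, and then to Ccl2 (1.31), and Ccl7 was nearest to Ccl5 (1.58). The early members lay near other genes: Ccl3 near Acod1 (1.45), the enzyme that makes itaconate, and Cd69 (1.5), and Ccl4 near the cytokine gene Il1b (1.48) and Gadd45b (1.56). Ccl6 lay nearest to E230029C05Rik (0.49) and Rgs10 (0.52), and Ccl9 to Gimap5 and A530040E14Rik (both 0.58).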

How the data were processed

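Per the study's methods and the labels, polyA RNA was amplified with SMART-Seq v4, which does not mark strand, and the authors aligned single-end reads to mm10 with STAR (2.5.3a) and assigned them to Ensembl transcripts in Partek by expectation-maximisation, which can split reads between related genes. The deposited values are RPKM, made by the authors, 1 per gene and retina. Read counts were not used here, so the precision of low values is unknown. The authors' tables of comparisons (p-values, ratios and fold changes for 4 h and 18 h) were not used.

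The filter kept 13164 of 40021 genes, those that reached an RPKM of 1 in 5 or more of the 28 retinas. Groups came from the labels. Values were transformed to log2(RPKM + 1) and fitted with limma 3.58.1 (R 4.3.3) as 4 group means with a mean-variance trend. A fit of 8 means gave the difference between experiments at 4 h. The tests were checked on simulated data. Figures were drawn with matplotlib 3.10.9.

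The members and all lists were chosen with earlier results of these data known. All 9 members are named. Of other lists, up to 6 genes called in any comparison were eligible, and Ccr1 and Ccr2 were added once their values were known. A few items are not reported here. The 2 nearest profiles per called member were taken. Alternatives were 17 other settings and the omission of each retina.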

Additional observations from a re-analysis of the deposited data

Results flagged for a closer look

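Ccl4 in replicate 1 at 2 weeks was 0.153 RPKM, while the other 6 retinas at 2 weeks were between 29.1 and 114 RPKM. On the log2(RPKM + 1) scale the gap was 0.71 of the range of the group, above Dixon's critical value for 7 samples, while on the RPKM scale it was 0.25 of the range, below that value. In the same retina Ccl3 was 434 RPKM, the highest of its group. That retina had 6644 genes at an RPKM of at least 1, against 9536 to 11607 in the other 6. Of 36 groups of values tested on the log2 scale, this was the only one past the limit, and chance gives about 1 in 20.

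Ccl12 at 2 weeks moved in opposite directions in the experiments. Each 2-week retina of experiment 1 lay above, and each of experiment 2 below, the log-scale mean of the naïve retinas of its own experiment, and the changes differed by -1.21 on the log2 scale (experiment 2 minus experiment 1). Mean changes at 2 weeks were also opposite in experiments 1 and 2 for Ccl7 (0.70 and -2.04), Ccl2 (0.27 and -1.15) and Ccl8 (-0.50 and 0.31). For those genes not every retina followed the mean. These differences were not tested.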

How the results depend on the processing

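The values are RPKM from amplified RNA of 600 cells, so that low members such as Ccl8 are known least well. Over 17 alternatives and the omission of each of the 28 retinas, the count of called members moved by more than 1.5 times only at 18 h against 4 h, from 3 to 5 with a pseudocount of 10, with array quality weights and on untransformed RPKM, by the addition of Ccl2 and Ccl5 each time, and a fit of only the groups compared gave 4, with Ccl2 and Ccl5 added and Ccl9 lost; the cause was not tested. For the difference between experiments, settings with 1 experiment or with experiment as a term give no value, and untransformed RPKM was not run. Other single-member changes kept direction and call in 834 cases, became called in 11 and lost the call in 15, and with 1 retina left out in 1482, 3 and 0 cases. Rescaling to equal summed RPKM moved the median of all genes from -0.11 to -0.28 at 4 h, from -0.08 to -0.26 at 18 h and from 0.16 to 0.33 at 2 weeks against 18 h, and left the counts of called members as they were.

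The reversals were of values that were not called. Against naïve retinas at 2 weeks they were Ccl2 (0.27), Ccl3 (0.00) and Ccl7 (0.70) in experiment 1 alone, Ccl8 (0.31) and Ccl12 (-0.59) in experiment 2 alone, and Ccl8 (0.52) and Ccl12 (-0.27) with array quality weights. At 18 h Ccl9 reversed with array quality weights (0.02) and on untransformed RPKM (0.05), and at 18 h against 4 h Ccl8 reversed in experiment 2 alone (0.72) and with array quality weights (0.88). The difference between experiments at 4 h reversed for Ccl2 with a pseudocount of 10 (0.27), array quality weights (0.53) and quantile normalisation (0.05), and for Ccl12 with the last pair (0.13 and 0.12). With 1 retina left out, the ranges that crossed 0 were -0.17 to 0.36 for Ccl12, -0.56 to 0.25 for Ccl8 and -0.75 to 0.36 for Ccl4 at 2 weeks, -0.52 to 0.28 for Ccl9 at 18 h, -1.04 to 0.20 for Ccl8 at 18 h against 4 h, -0.10 to 0.70 for Ccl9 at 2 weeks against 18 h, and -0.45 to 0.68 for Ccl2 and -0.46 to 0.52 for Ccl12 between experiments.

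Replicate numbers gave no clear pairing of retinas between groups. Over 34 pairs with the same number the correlation of deviations was 0.05 on average (from -0.33 to 0.70), against 0.01 over 253 other pairs. Of the 34, 19 were at most 0.1, and 7 of 28 retinas were closest to their own number. Pairs within a group, such as both eyes of a mouse, were not examined. A fit with the replicate block gave 8, 7, 0, 3 and 7 called members in the 5 comparisons of times, as without it, and 0 between experiments. It reversed Ccl7 (0.45) and Ccl12 (-0.03) at 2 weeks, and Ccl2 (0.34), Ccl5 (0.07), Ccl7 (0.03) and Ccl12 (0.03) between experiments, none of them called.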

Other observations

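Border-associated macrophages also express Cx3cr1, and the levels of 6 of their markers (Mrc1, Cd163, Lyve1, Pf4, Ms4a7 and Cd209f) varied between retinas, from a summed 12.3 to 600.4 RPKM in naïve retinas, 34.5 to 348 at 4 h, 31.8 to 86.9 at 18 h and 3 to 477 at 2 weeks. The correlation of each member with this sum on the log2 scale was computed in naïve and in 2-week retinas, 18 relations in all, with permutation p-values. In the 10 naïve retinas Ccl2 (Pearson r = 0.82, Spearman rho = 0.44), Ccl5 (r = 0.81, rho = 0.59) and Ccl9 (r = 0.81, rho = 0.73) each had an adjusted permutation p of 0.04 for r. The adjusted permutation p for rho was 0.46, 0.29 and 0.29. All 10 retinas were permuted freely, so that neither the experiment nor eyes of 1 mouse were taken into account. Without the 2 retinas farthest from the median sum, r was 0.11 for Ccl2, 0.15 for Ccl5 and 0.54 for Ccl9, so that the first 2 relations rest on those retinas. These were naïve replicates 1 and 4, with sums of 22.7 and 12.3 RPKM, both from experiment 1. In the 7 retinas at 2 weeks no relation passed the adjustment. The part of these cells in the levels of the members was not tested.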
